A study of Mus musculus with 136 samples.

Results

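The libraries described here are the 4 chromatin RNA libraries of DMSO-pretreated cells taken at 0, 15, 30 and 60 min of lipid A, out of 136 samples in the series. They were chosen by their labels: wild-type mouse bone marrow-derived macrophages (strain given as C57/B16), grown from hip and leg bone marrow for 6 days with 8% M-CSF, pretreated with DMSO and then stimulated with lipid A, with 1 library per time. They were set against 4 libraries from cells pretreated with an ERK inhibitor (ERKi, compound not named in the labels) with the same times of lipid A, against 30 wild-type chromatin libraries from 4 knockout experiments (Nfkb1, Nfkbid, Nfkbiz and Bcl3, 10 libraries each at 0, 0.5 and 1 h of lipid A, with no pretreatment in their labels), against 3 chromatin libraries of wild-type macrophages given TNFa for 0, 0.5 and 1 h, and against 3 mRNA libraries at 0, 0.5 and 1 h of lipid A. The comparison asks in which order genes switched on and off in the first hour, at 15 min resolution.

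Lipid A is the part of bacterial lipopolysaccharide that TLR4 binds. TLR4 signals through MyD88 and TRIF to NF-kB, IRF3 and the MAP kinases, ERK among them. Immediate-early genes need no new protein for their transcription, and interferon-response genes are known as a later wave that follows secreted interferon beta. RNA bound to chromatin is largely still being made or only just completed, so its level follows transcription more closely than that of whole-cell RNA.

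Sequencing depth, recovered from the value of 1 read in each library, was 24.0, 21.8, 21.9 and 26.7 M reads at 0, 15, 30 and 60 min, with 5.83 to 8.76 M reads inside listed genes. Levels are RPKM over the whole gene span, introns included, and genes with 0 or 1 read carry the same value. Macrophage markers were present: 5 of 9 were listed and all 5 were above 1 RPKM, with sums of 139, 197, 173 and 95.4 RPKM at 0, 15, 30 and 60 min. Markers of the other blood and stromal cell types searched were below 1 RPKM at every time, with sums of at most 0.639 RPKM. In bulk RNA, fewer cells of a type and less RNA per cell cannot be told apart.

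With 1 library per time there is no replicate check and no test in the DMSO cells, so genes are described by a rule of size. A gene was called on at the earliest of 15, 30 or 60 min at which log2(RPKM + 0.5) was at least 3-fold above 0 min with at least 3 RPKM, and off at the earliest time at which it was at least 3-fold below with at least 3 RPKM at 0 min. Of 15196 listed genes, 3154 reached 1 RPKM in at least 1 of the 4 libraries. At 15 min 89 of these stood past 3-fold above 0 min, at 30 min 145 and at 60 min 189, which is 2.82%, 4.6% and 5.99% of the genes compared. Genes past 3-fold below numbered 7 at 15 min, 84 at 30 min and 115 at 60 min, or 0.222%, 2.66% and 3.65%. By the earliest time, 89 genes switched on at 15 min, 78 at 30 min and 96 at 60 min, and 7, 81 and 61 switched off at those times; 0 genes did both.

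The median gene was not level across the libraries. It stood at -0.22, -0.52 and -0.15 on the log2(RPKM + 0.5) scale at 15, 30 and 60 min relative to 0 min, with 70.7%, 71.8% and 57.1% of genes below their 0 min value. With each library centred on that median, 109, 216 and 221 genes stood past 3-fold above at 15, 30 and 60 min, and 3, 27 and 97 past 3-fold below. By earliest time, 3 and 27 genes were then off at 15 and 30 min, in place of 7 and 81. At the edges of the rule, Rel was just inside at 15 min (log2 difference 1.59) and H2-K2 just outside (1.57), and at 30 min Atp6v1b2 was just inside on the lower side (-1.59) and Ranbp9 just outside (-1.58).

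**Figure D1:**
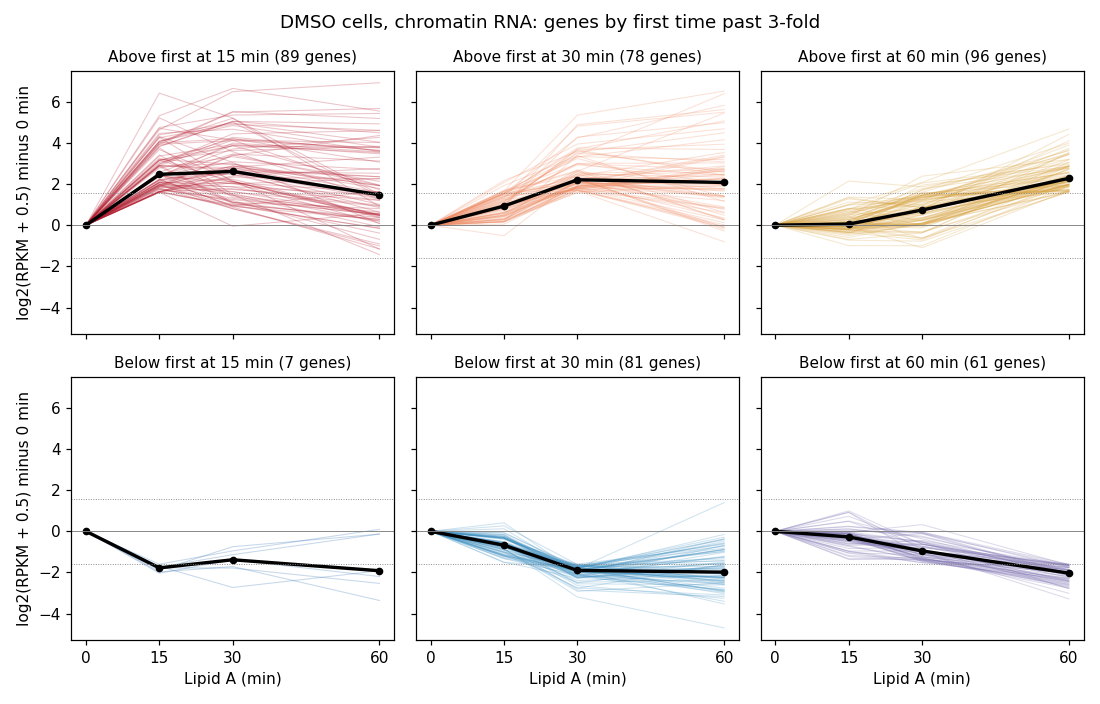
Course of each switching class in the DMSO cells, 1 panel per class (above: on; below: off). The x axis is time of lipid A (min), the y axis is log2(RPKM + 0.5) minus its value at 0 min, thin lines are genes, the thick line is the class median and dotted lines mark 3-fold; the 89 genes on at 15 min are widely spread at 60 min, when 46 of them were back under 3-fold.

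Genes on at 15 min included most of a list of immediate-early genes, many of them transcription factors. Of 15 listed genes that passed the level filter, 13 were on at 15 min, with a list median of 3.15, 2.19 and 0.46 on the log2 scale at 15, 30 and 60 min, while the median of all genes compared was -0.22, -0.52 and -0.15. Egr1, a zinc finger factor and standard target of ERK signalling, had 0.111, 51.6, 21.96 and 0.649 RPKM at 0, 15, 30 and 60 min. It had the largest log2 difference at 15 min, 6.41, from 4212 reads at 15 min, against 10 reads at 0 min, and the log2 ratio of those levels lay between 7.98 and 9.92 (95% exact binomial interval, counting error only). Ier2, another early response gene, had 1.42, 70.7, 22.3 and 4.13 RPKM, and Nr4a1, an orphan nuclear receptor, had 0.252, 14.0, 2.74 and 0.495 RPKM. In all of these the 15 min library was the highest and the 60 min library was below the 30 min one. Egr1, Ier2 and Nr4a1 were still above their 0 min level at 60 min.

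Fos and Jun, whose proteins pair to form AP-1, were below their 0 min level at the end of the hour. Fos had 3.20, 49.5, 9.83 and 0.874 RPKM at 0, 15, 30 and 60 min. Jun had 4.25, 59.9, 21.1 and 1.62 RPKM. In all, 10 genes were on at 15 min and below their 0 min value at 60 min, among them Id2, Insig1, Klf2, Mir425, Pmaip1, Pnrc1 and Zfp622. Junb, a related AP-1 subunit, did not share that course: it had 7.45, 72.02, 61.4 and 26.8 RPKM and stayed past 3-fold above at all 3 times. Ppp1r15a, a phosphatase subunit that reverses the translation block of stressed cells, had 0.883, 35.5, 23.7 and 4.07 RPKM. The members of the immediate-early list that were not called were Mafk, at 1.51, 0.963, 1.27 and 1.74 RPKM, and Srf, at 0.590, 1.80, 0.802 and 0.470 RPKM.

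The 89 genes on at 15 min split by the time of their highest value: 40 were highest at 15 min, 39 at 30 min and 10 at 60 min. By 60 min, 46 were back under 3-fold and 35 under 2-fold, and 41 were past 3-fold at all 3 times. Among those highest at 15 min, 17 had lost at least 2-fold by 30 min. The 10 highest at 60 min were Ccl3, Cxcl1, Icam1, Icosl, Il1b, Rel, Sdc4, Socs3, Tnfaip2 and Zc3h12a, which include a pair of chemokines, an adhesion molecule (Icam1), a cytokine and the NF-kB subunit Rel. Sdc4, a cell surface proteoglycan, had 1.88, 63.2, 96.6 and 102 RPKM at 0, 15, 30 and 60 min. Il1b, which encodes interleukin-1 beta, had 0.330, 20.1, 73.7 and 99.8 RPKM; it overlaps a listed antisense transcript, Il1bos, and the sources used here do not say whether strand was used in counting.

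**Figure D2:**
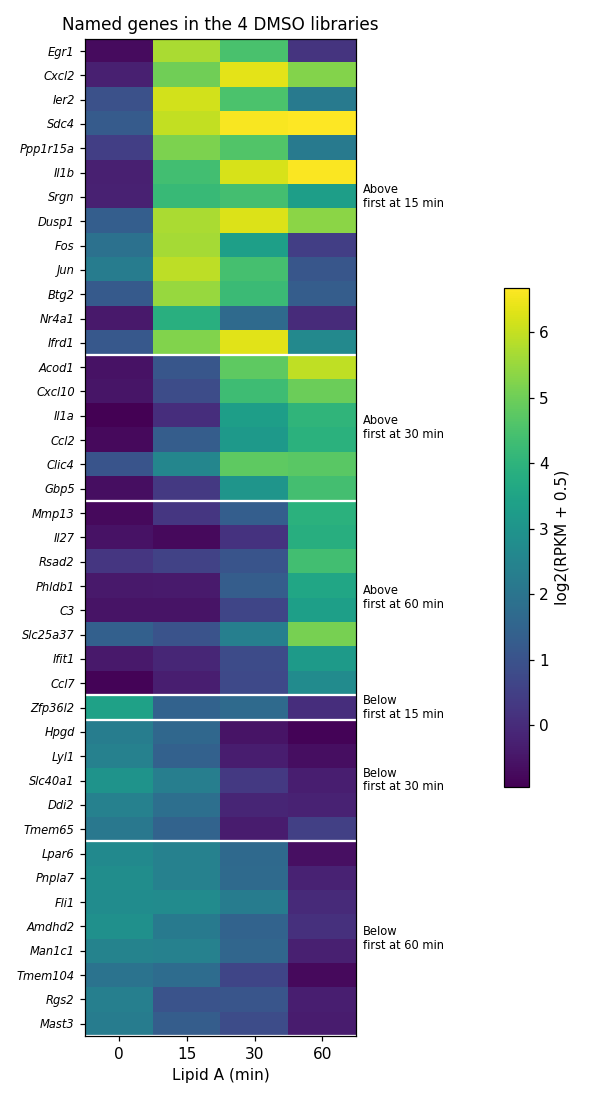
Levels of named genes of at least 200 bases in the 4 DMSO libraries. Columns are 0, 15, 30 and 60 min of lipid A, rows are genes grouped by switching class (above: on; below: off), and colour is the level as log2(RPKM + 0.5); Egr1, Fos and Nr4a1 are highest at 15 min and low again by 60 min, while Il27 and C3 are highest at 60 min.

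Some negative regulators were on at 15 min. Nfkbia encodes IkB-alpha, the inhibitor that holds NF-kB in the cytoplasm and is itself an NF-kB target. It had 6.54, 107, 121 and 94.4 RPKM at 0, 15, 30 and 60 min, so it stayed high through the hour. Dusp1, a phosphatase of MAP kinases, had 2.01, 52.0, 77.5 and 40.5 RPKM. Of 10 MAP kinase feedback genes, 4 were on at 15 min (Dusp1, Dusp2, Dusp5 and Gadd45b), 1 at 30 min (Gadd45a) and none was off; Dusp6 had 1.10, 0.528, 0.354 and 0.106 RPKM. Of 5 genes listed for the NF-kB pathway, not all of them known inhibitors, 2 were on at 15 min (Tnip3 and Tnfaip2), 1 at 30 min (Birc3) and none was off. Socs3, an inhibitor of cytokine receptor signalling, had 0.343, 12.3, 37.4 and 42.3 RPKM.

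Of 7 genes for mRNA decay factors, 4 were on at 15 min and 2 were off. Zfp36, which encodes the TTP protein that destabilises AU-rich mRNAs, had 9.10, 69.3, 66.1 and 25.4 RPKM at 0, 15, 30 and 60 min. Of its relatives in the same family, Zfp36l2 had 10.2, 2.22, 2.76 and 0.541 RPKM and was the only gene of 200 bases or more, or with at least 20 reads in the higher library, called off at 15 min. Zfp36l1 had 7.19, 14.0, 3.70 and 0.934 RPKM, higher at 15 min than at 0 min and past 3-fold below at 60 min.

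Genes of the NF-kB and IkB family were called at different times. Rel was on at 15 min with 1.85, 6.57, 11.9 and 15.4 RPKM at 0, 15, 30 and 60 min, Nfkb1 at 30 min with 2.25, 3.33, 10.7 and 27.2 RPKM, and Bcl3, a nuclear IkB family member, at 60 min with 1.20, 2.46, 2.76 and 6.93 RPKM. Rela, at 2.27, 7.42, 7.53 and 6.29 RPKM, passed 2-fold and did not reach 3-fold at any time. At 15 min its log2 difference was 1.52, while that of Rel, just inside the rule, was 1.59. Several NF-kB family and cytokine genes are not analysed here. Of 14 Toll-like receptor and TLR4 signalling genes, 2 were on at 15 min (Tlr2 and the TLR4 co-receptor Cd14), 2 at 60 min (Irak2 and Ikbke) and none was off by the rule. Tlr4 itself had 3.70, 2.33, 1.08 and 1.06 RPKM at 0, 15, 30 and 60 min, and Myd88, its adaptor, 1.26, 3.91, 2.43 and 3.16 RPKM.

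Chemokine genes spread over all 3 times. Cxcl2, which attracts neutrophils, was on at 15 min with 0.327, 32.4, 81.9 and 38.0 RPKM at 0, 15, 30 and 60 min, and its neighbour Cxcl1 with 0.0223, 3.58, 10.8 and 12.1 RPKM. Of 6 CC chemokine genes, Ccl3, Ccl4 and Ccl9 were on at 15 min, Ccl2 and Ccl5 at 30 min and Ccl7 at 60 min. Ccl4 had 1.83, 32.2, 76.1 and 69.9 RPKM. Ccl5, a T cell attractant, had 0.0440, 0.116, 5.26 and 44.9 RPKM, so nearly all of its signal came in the last interval. Ccl2 and Ccl7 lie 8259 bases apart and differed in time: Ccl2 had 0.0888, 1.98, 8.54 and 14.6 RPKM and Ccl7 had 0.0460, 0.304, 1.16 and 6.20 RPKM.

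Genes on at 30 min included 4 of 8 effector enzymes and secreted proteins, with 1 of the 8 on at 15 min and 2 at 60 min. Acod1, the enzyme that makes itaconate, had 0.174, 1.62, 26.8 and 61.0 RPKM at 0, 15, 30 and 60 min, a log2 difference of 5.34 at 30 min. Il1a, which encodes interleukin-1 alpha and overlaps the listed gene Gm14023, had 0.0201, 0.545, 9.59 and 15.9 RPKM. Ptgs2, the inducible cyclooxygenase, had 0.0102, 0.834, 4.59 and 8.54 RPKM. All of these were above their 0 min value by 15 min and highest at 60 min. Of the 78 genes, 35 were already past 2-fold at 15 min. The class split nearly evenly after 30 min, with 44 highest at 30 min and 34 at 60 min, and 27 back under 3-fold at 60 min; Plau, a secreted protease that activates plasminogen, had 0.972, 1.97, 9.03 and 1.77 RPKM. Ptp4a1 and the overlapping Gm13363, both on at 30 min, had nearly the same levels at every time, and how reads were divided between them is uncertain.

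Genes on at 60 min included most of the interferon-response genes that were called. Of 13 in the list, 0 were on at 15 min, 2 at 30 min (Cxcl10 and Gbp5) and 6 at 60 min, with list medians of 0.09, 0.77 and 2.86 on the log2 scale at 15, 30 and 60 min, while all genes compared stood at -0.22, -0.52 and -0.15. Rsad2, the antiviral protein viperin, had 0.708, 0.965, 1.55 and 20.2 RPKM. Mx1, an antiviral GTPase, had 0.964, 0.874, 0.446 and 6.93 RPKM. Ifnb1, which encodes interferon beta, had 0.0541, 0.0597, 1.84 and 2.38 RPKM and did not reach the 3 RPKM that the rule asks for.

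Il27, which encodes a subunit of the cytokine interleukin-27, stood out for its late onset: it had 0.166, 0.0993, 0.637 and 13.6 RPKM at 0, 15, 30 and 60 min. Its log2 difference was 4.41 at 60 min, from 2046 reads at 60 min, against 22 reads at 0 min. Ebi3, the other subunit of the same cytokine, was also on at 60 min with 0.559, 1.21, 2.22 and 3.48 RPKM. C3, a complement component, had 0.191, 0.184, 1.08 and 9.75 RPKM, and Mmp13, a collagenase, had 0.10, 0.688, 2.03 and 14.7 RPKM. Slc25a37, the mitochondrial iron importer mitoferrin, had 2.14, 1.49, 4.57 and 34.5 RPKM, nearly all of it in the last interval. Across the 96 genes on at 60 min, 36 were already past 2-fold at 30 min and 6 at 15 min.

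MicroRNA loci were on or off in several classes, and the mature sequences below are shown because some of them share a seed, the stretch that pairs with target mRNAs. Chromatin RNA reads over these short loci come from the primary transcript and do not measure the mature miRNA. Mir155, a locus known for its induction in activated macrophages, had 0.641, 2.83, 21.1 and 64.0 RPKM at 0, 15, 30 and 60 min. Its 0 min level is the value carried by 0 or 1 read, and it had 30 reads at 30 min. Mir221 had 2.63, 5.32, 91.7 and 153 RPKM and its neighbour Mir222 had 1.05, 4.07, 19.1 and 23.2 RPKM, and both were on at 30 min. Mir223, a myeloid locus, was off at 30 min with 22.7, 10.9, 4.98 and 1.70 RPKM. Mir17, Mir18, Mir19b-1, Mir20a, Mir92-1 and the host Mir17hg, all of the cluster on chromosome 14, were on at 60 min; Mir17hg had 0.695, 0.746, 0.702 and 4.21 RPKM. Of 50 called miRNA loci 45 matched a RefSeq entry (GRCm38.p6). Capitals mark the seed, bases 2 to 8.
mmu-miR-155-5p: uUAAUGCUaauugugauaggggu
mmu-miR-221-3p: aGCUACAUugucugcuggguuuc
mmu-miR-222-3p: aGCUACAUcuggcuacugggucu
mmu-miR-223-3p: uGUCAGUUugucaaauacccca
mmu-miR-17-5p: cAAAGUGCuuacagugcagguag
mmu-miR-20a-5p: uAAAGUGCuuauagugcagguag
mmu-miR-92a-3p: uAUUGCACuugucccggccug
mmu-miR-25-3p: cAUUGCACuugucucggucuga
The miR-221 and miR-222 arms share their seed, and both loci were on at 30 min; miR-17 and miR-20a share theirs, and both loci were on at 60 min. The arms of miR-92a and miR-25 also share a seed, but Mir92-1 was on at 60 min and Mir25 was called off at 15 min, from 2 reads at 15 min, against 10 reads at 0 min. Of the 7 genes called off at 15 min, 6 were short loci with so few reads.

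Switching off was mostly called at 30 and 60 min. At 30 min 81 genes were newly past 3-fold below, and 78 of them were already lower at 15 min, 19 by 2-fold or more. Over all genes compared, 70.7% were lower at 15 min than at 0 min. Slc40a1, the iron exporter ferroportin, had 7.28, 4.47, 0.750 and 0.314 RPKM at 0, 15, 30 and 60 min. Hpgd, the enzyme that inactivates prostaglandins, had 4.42, 2.53, 0.181 and 0.0467 RPKM. Lyl1, a haematopoietic transcription factor gene 38604 bases from Ier2, had 4.84, 2.16, 0.294 and 0.126 RPKM. All 3 were lower at each successive time.

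Not every gene off at 30 min stayed off. At 60 min 50 of the 81 were still past 3-fold below, 42 were higher than at 30 min and 20 were back within 2-fold of 0 min. Lpl, which encodes lipoprotein lipase, had 7.69, 6.44, 1.82 and 6.87 RPKM at 0, 15, 30 and 60 min. Tnfrsf11a, which encodes the RANK receptor, had 3.27, 2.17, 0.570 and 9.41 RPKM, the lowest at 30 min and the highest at 60 min. The 30 min library also had the lowest median over all genes, and its part in these dips was not tested.

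At 60 min 61 more genes were off, 50 of which were lower at 15 min than at 0 min, as were 70.7% of all genes compared. Of 15 genes of macrophage identity and homeostasis, 6 were off at 60 min (among them Csf1r, Maf, Mertk, Fcrls and Rgs2), 1 was on at 15 min (Rgs1), and the list medians were 0.08, -0.87 and -1.19 on the log2 scale at 15, 30 and 60 min, against -0.22, -0.52 and -0.15 over all genes compared. Csf1r, the M-CSF receptor, had 35.2, 41.8, 33.9 and 10.1 RPKM. Mertk, a receptor for the uptake of dying cells, had 4.84, 4.30, 2.42 and 0.518 RPKM. Fli1, an ETS family factor, had 6.29, 6.19, 4.25 and 0.483 RPKM. In each of these the 30 min value was within 3-fold of 0 min and the 60 min value was the lowest.

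Calls in other listed groups follow. Over all genes compared, 2.82%, 4.6% and 5.99% stood past 3-fold above 0 min at 15, 30 and 60 min, and 0.222%, 2.66% and 3.65% past 3-fold below. Of 8 genes of the elongation machinery, 1 was on at 30 min: Ell2, an elongation factor, had 2.67, 4.37, 17.4 and 20.1 RPKM at 0, 15, 30 and 60 min. Of 5 chromatin regulators, Kdm6b, a histone H3K27 demethylase, was on at 15 min with 0.382, 4.01, 13.5 and 9.92 RPKM. None of 2 heat shock genes or 5 nuclear RNAs was called. Among 7 lipid and sterol genes, Insig1 was on at 15 min, Lpl off at 30 min and Plin2, a lipid droplet coat protein, off at 60 min.

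Genes on at 15 min were short. Among genes of at least 200 bases, the median span was 5760 bases for those on at 15 min, 21512 bases for those on at 30 min and 24962 bases for those on at 60 min, and 18609 bases for all genes compared. Spans over 50 kb were held by 0 of 82 genes on at 15 min, 14 of 72 on at 30 min (19.4%), 24 of 83 on at 60 min (28.9%) and 20.6% of all genes. At least 10 RPKM at the highest time left 69 genes on at 15 min with a median span of 5337 bases, against 9813 bases for all 223 genes at that level, a rule added after the data were seen. Levels are averaged over the whole span, so reads near the start of a long gene count for less, and the part of span in the time at which a gene was called was not tested. Within the genes on at 15 min, span also differed by course: the median was 3895 bases for those highest at 15 min, 6057 bases for those highest at 30 min and 9813 bases for those highest at 60 min.

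**Figure D3:**
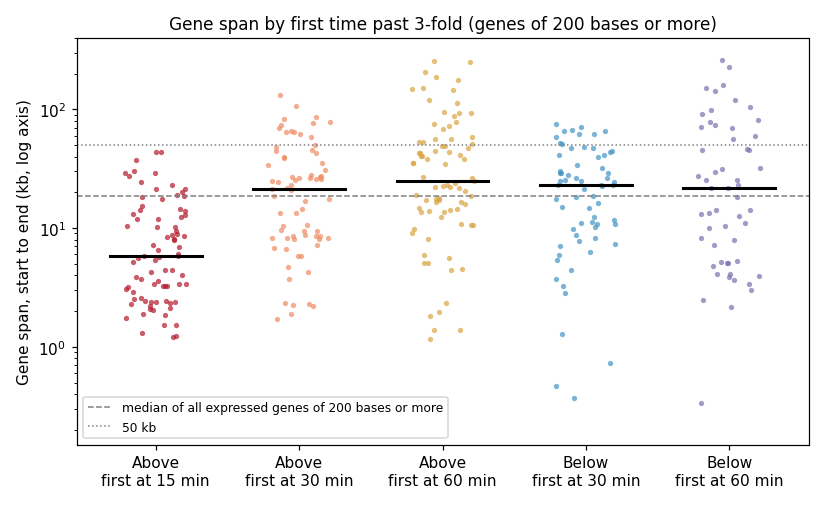
Gene span by switching class in the DMSO cells (above: on; below: off). The y axis is span in kb on a log scale, points are genes of at least 200 bases, bars are class medians, the dashed line is the median of all genes compared and the dotted line is 50 kb; genes on at 15 min have a median of 5760 bases and none over 50 kb.

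Promoter sequences, from 250 bases before to 50 after each RefSeq start (GRCm38.p6), were searched on both strands for 5 motifs, and 63 of the genes on at 15 min, 54 on at 30 min and 62 on at 60 min had an entry. The kB consensus, which NF-kB binds, was found in 15 of 63 promoters on at 15 min (23.8%), in 11.1% of those on at 30 min and 8.06% of those on at 60 min, while 5.57% of the 2084 promoters of genes compared and 4.26% of all 22862 promoters held it. The interferon-stimulated response element, GAAA, any 2 bases and GAAA, was in 6.35%, 5.56% and 14.5% of promoters on at 15, 30 and 60 min and in 4.03% of genes compared (3.58% of all). The AP-1 motif TGANTCA was in 3.17%, 14.8% and 14.5% at those times and in 5.23% of genes compared (7.98% of all), and the cAMP response element TGACGTCA in 6.35%, 3.70% and 1.61%, with 4.03% among genes compared (1.85% of all). The CArG box that SRF binds was in 3.17%, 1.85% and 1.61%, with 1.63% among genes compared (1.53% of all). Among genes off at 30 and 60 min the kB consensus was in 4.65% and 2.5%, the interferon element in 4.65% and 2.5%, and the AP-1 motif in 0% and 12.5%, the last close to its share among genes on at 30 and 60 min. A match is a description of these letters and not a measured binding site.

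The promoters of 2 genes on at 15 min with a kB match (Cxcl2 and Nfkbia), 1 on at 15 min with the cAMP response element (Btg2, an antiproliferative early gene), 1 on at 30 min with both kinds (Cxcl10) and 2 on at 60 min with the interferon element (Ifit1 and Rsad2) show how these matches sit. Each is given on its gene's strand, 5′ to 3′, with its kB, cAMP response element and interferon element matches in capitals; Cxcl10 and Rsad2 also hold an AP-1 match, left in lower case. In Cxcl2 the capitals hold 2 kB matches that overlap, from -97 to -88 and from -96 to -87 relative to the start; in Nfkbia the match is at -29 to -20 and in Btg2 at -166 to -159. Cxcl10 has the interferon element at -213 to -204 and kB matches at -159 to -150 and -103 to -94, Ifit1 has interferon elements on the other strand at -104 to -95 and -85 to -76, and Rsad2 has 1 on the other strand at -120 to -111.
Cxcl2, chr5:90903649-90903948, plus strand: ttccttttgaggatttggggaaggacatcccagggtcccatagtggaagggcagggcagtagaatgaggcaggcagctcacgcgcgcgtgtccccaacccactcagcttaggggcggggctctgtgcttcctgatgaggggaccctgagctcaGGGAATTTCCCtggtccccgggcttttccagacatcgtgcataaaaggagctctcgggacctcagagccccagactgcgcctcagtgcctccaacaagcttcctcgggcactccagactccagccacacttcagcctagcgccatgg
Nfkbia, chr12:55492598-55492897, minus strand: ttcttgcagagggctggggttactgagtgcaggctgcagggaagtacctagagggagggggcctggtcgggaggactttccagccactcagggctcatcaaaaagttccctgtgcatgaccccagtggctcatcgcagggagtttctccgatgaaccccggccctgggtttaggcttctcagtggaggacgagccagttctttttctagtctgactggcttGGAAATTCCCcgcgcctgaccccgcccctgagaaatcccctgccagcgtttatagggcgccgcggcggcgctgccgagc
Btg2, chr1:134079106-134079405, minus strand: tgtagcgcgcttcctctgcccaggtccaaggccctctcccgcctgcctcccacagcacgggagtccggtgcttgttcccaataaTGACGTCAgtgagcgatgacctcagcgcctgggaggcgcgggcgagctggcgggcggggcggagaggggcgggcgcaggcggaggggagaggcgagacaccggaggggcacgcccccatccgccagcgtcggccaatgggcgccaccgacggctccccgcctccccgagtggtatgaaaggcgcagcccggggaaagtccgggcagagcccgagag
Cxcl10, chr5:92348840-92349139, minus strand: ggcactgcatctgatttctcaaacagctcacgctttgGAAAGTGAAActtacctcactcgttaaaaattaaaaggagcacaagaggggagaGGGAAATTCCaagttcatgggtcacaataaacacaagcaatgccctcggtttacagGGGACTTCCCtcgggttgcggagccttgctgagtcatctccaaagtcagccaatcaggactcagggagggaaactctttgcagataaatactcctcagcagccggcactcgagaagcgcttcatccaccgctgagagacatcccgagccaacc
Ifit1, chr19:34640639-34640938, plus strand: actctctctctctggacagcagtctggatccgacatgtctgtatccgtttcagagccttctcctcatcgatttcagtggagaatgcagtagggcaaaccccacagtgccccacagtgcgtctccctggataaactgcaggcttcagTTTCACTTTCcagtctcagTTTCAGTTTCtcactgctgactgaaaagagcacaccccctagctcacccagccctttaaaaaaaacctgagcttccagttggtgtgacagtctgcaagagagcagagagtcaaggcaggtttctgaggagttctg
Rsad2, chr12:26456403-26456702, minus strand: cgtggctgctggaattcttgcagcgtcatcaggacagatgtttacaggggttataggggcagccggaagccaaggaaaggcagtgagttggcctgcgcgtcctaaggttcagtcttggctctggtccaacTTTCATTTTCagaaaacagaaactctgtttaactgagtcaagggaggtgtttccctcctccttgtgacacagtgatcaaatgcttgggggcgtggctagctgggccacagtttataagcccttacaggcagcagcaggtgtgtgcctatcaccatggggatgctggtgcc
Btg2 had 1.81, 45.2, 18.6 and 1.95 RPKM at 0, 15, 30 and 60 min and was back at its starting level by the end of the hour. Ifit1, a cap-binding antiviral protein, had 0.242, 0.413, 1.25 and 8.83 RPKM.

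The order was then read in the 30 wild-type libraries, which were not used to choose these genes and which have replicates at 0.5 and 1 h. The labels do not say whether replicates came from separate mice or cultures, so p-values measure the spread between these samples, which may be technical. Replicate 1 of the Nfkbid wild type stood apart at all 3 times, with Malat1, a nuclear RNA, at 8.14 to 12.9 RPKM while it was at 900 to 2648 RPKM in the other 27 libraries, and Rmrp, another noncoding RNA, at 0.0931 to 0.191 RPKM while it was at 749 RPKM or more in the others. It is labelled chromatin RNA like the rest, and whether it is that fraction was not tested, so the counts of each class of genes on, and of those off at 30 and 60 min, are also given without it. limma with the experiment as a term, Benjamini-Hochberg adjusted p under 0.05 over 3768 genes and at least 2-fold called 258 genes higher (6.85%) and 622 lower (16.5%) at 0.5 h than at 0 h, and 271 higher (7.19%) and 706 lower (18.7%) at 1 h than at 0 h. Centred on the median gene, whose log2 change was -0.47 at 0.5 h and -0.36 at 1 h, the split was 428 higher and 156 lower at 0.5 h, and 419 higher and 289 lower at 1 h.

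Of the genes on at 15 min in the DMSO cells, 88 could be tested in the wild-type libraries: 74 rose at 0.5 h and 52 at 1 h, and 28 fell between 0.5 and 1 h with 0 rising (3.61% of all genes tested fell and 3.85% rose in that interval). Of 76 tested genes on at 30 min, 70 rose at 0.5 h and 49 at 1 h, and between 0.5 and 1 h 18 fell and 8 rose. Of 93 tested genes on at 60 min, 33 rose at 0.5 h and 78 at 1 h, and 39 rose between 0.5 and 1 h with 0 falling. Once the libraries were centred, 58 of these 93 rose at 0.5 h, 86 at 1 h and 31 between 0.5 and 1 h. Without replicate 1 of the Nfkbid wild type, 72 genes on at 15 min rose at 0.5 h and 53 at 1 h, with 36 falling between 0.5 and 1 h. For genes on at 30 min these counts were 71, 52 and 22, with 7 rising between 0.5 and 1 h, and for genes on at 60 min 43 and 81, with 46 rising.

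Most genes off at 30 min in DMSO cells were also called lower in the wild-type libraries. Of 78 tested genes off at 30 min, 68 fell at 0.5 h and 50 at 1 h, and of 59 off at 60 min 19 fell at 0.5 h and 47 at 1 h, with 20 lower at 1 h than at 0.5 h. When the libraries were centred on the median gene, the counts at 0.5 h came to 44 for genes off at 30 min and 8 for genes off at 60 min. Without replicate 1 of the Nfkbid wild type, 64 of 74 genes off at 30 min fell at 0.5 h and 46 at 1 h, and 25 of 56 off at 60 min fell at 0.5 h and 47 at 1 h.

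**Figure D4:**
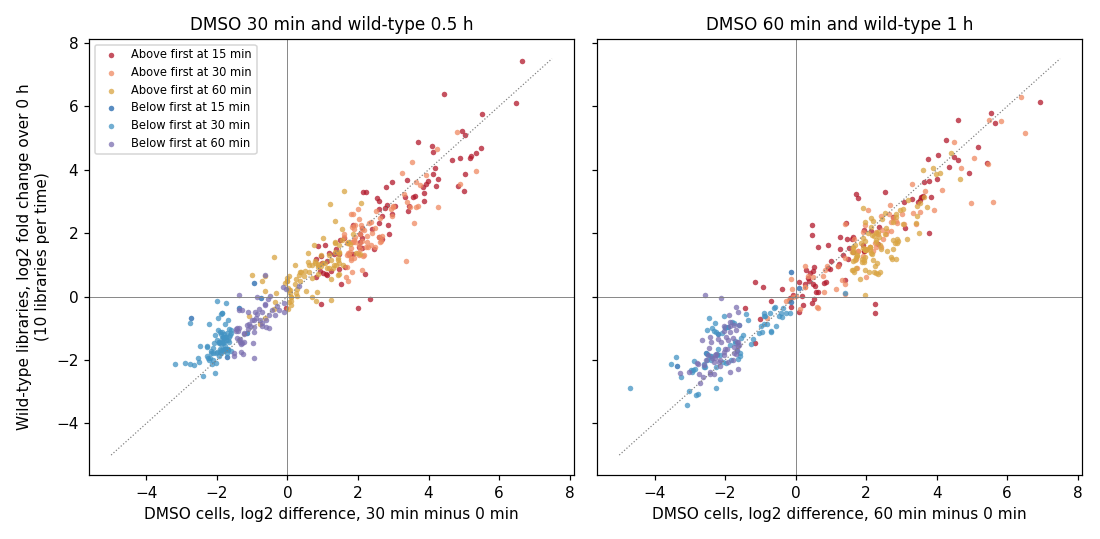
Log2 changes of the called genes in the wild-type libraries and in the DMSO cells. The y axis is limma's log2 fold change in the wild-type libraries (10 per time) at 0.5 h (left) or 1 h (right) over 0 h, the x axis is the log2 difference of DMSO cells at 30 min (left) or 60 min (right) from 0 min, points are genes coloured by class and the dotted diagonal marks equal values; genes on at 60 min lie nearer 0 in the left panel, where 33 of 93 rose in the wild type, than in the right one, where 78 did.

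Egr1 in the wild-type libraries had a median of 0.107 RPKM (0.0306 to 4.91) at 0 h, 11 RPKM (6.32 to 486) at 0.5 h and 0.611 RPKM (0.218 to 22.9) at 1 h. The lowest 0.5 h library was above the highest 0 h library. Egr1 was higher at 0.5 h than at 0 h in 10 of 10 replicates (log2 difference 4.44 ± 0.59 SE, adjusted p = 6.52e-07 by limma). It was lower at 1 h than at 0.5 h in 10 of 10 (-3.53 ± 0.59 SE, adjusted p = 7.64e-05 by limma). Outside replicate 1 of the Nfkbid wild type, Egr1 reached 1 RPKM only at 0.5 h. It thus passed the level filter through the time at which it was high, and these p-values are not free of that choice. Fos had a median of 1.49 RPKM (0.392 to 6.63) at 0 h, 4.76 RPKM (3.38 to 173) at 0.5 h and 0.783 RPKM (0.566 to 10.2) at 1 h, with a log2 difference of 1.78 ± 0.48 SE at 0.5 h against 0 h (adjusted p = 0.00276) and -2.13 ± 0.48 SE at 1 h against 0.5 h (adjusted p = 0.00161). Its groups overlap. Jun did not pass at 0.5 h against 0 h (0.72 ± 0.49 SE, adjusted p = 0.212). Once the libraries were centred its difference was 1.15 and past the threshold. With the replicate block the difference kept its size, under 2-fold, with adjusted p = 0.00162 by limma. Jun fell at 1 h against 0 h by 1.48 on the log2 scale (adjusted p = 0.0131).

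Il27 had a median of 0.553 RPKM (0.380 to 0.992) at 0 h, 2.15 RPKM (0.766 to 2.61) at 0.5 h and 24.1 RPKM (11.9 to 49.1) at 1 h. It rose at 0.5 h against 0 h (log2 difference 1.12, adjusted p = 7.84e-05 by limma) and rose more in the next interval. Every 1 h library was above every 0.5 h library. The log2 difference between 1 and 0.5 h was 3.42 ± 0.21 SE (adjusted p = 5.65e-12 by limma), higher in 10 of 10 replicates. C3, on at 60 min in the DMSO cells, had a median of 0.214 RPKM (0.056 to 6.61) at 0 h, 6.46 RPKM (3.06 to 17.1) at 0.5 h and 16.1 RPKM (5.09 to 24.9) at 1 h, and already rose at 0.5 h (2.91 ± 0.30 SE, adjusted p = 1.07e-08). Whether its onset differs between the experiments was not tested. Acod1 had a median of 2.11 RPKM (0.966 to 15.7) at 0 h, 54.2 RPKM (12.1 to 85.8) at 0.5 h and 105 RPKM (48.4 to 363) at 1 h and rose in both intervals (3.95 ± 0.37 SE, adjusted p = 1.87e-09, then 1.22 ± 0.37 SE, adjusted p = 0.0152). Without replicate 2 of the Nfkbiz wild type the later step was 1.14 and no longer passed. Among miRNA loci, Mir155 rose at 0.5 h (4.64 ± 0.41 SE, adjusted p = 9.63e-10) and Mir223 fell (-1.47 ± 0.29 SE, adjusted p = 0.00011).

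Slc40a1 had a median of 3.77 RPKM (2.63 to 7.33) at 0 h, 0.321 RPKM (0.220 to 5.51) at 0.5 h and 0.151 RPKM (0.10 to 3.20) at 1 h. It was lower at 0.5 h than at 0 h in 10 of 10 replicates (-2.14 ± 0.31 SE, adjusted p = 2.07e-06 by limma). Without the Nfkbid replicate Slc40a1 and Egr1 fell under the level filter. Outside that replicate Slc40a1 reached 1 RPKM only at 0 h, so it passed the filter through the time at which it was high. Mertk had a median of 2.57 RPKM (0.531 to 4.83) at 0 h, 1.68 RPKM (0.588 to 2.89) at 0.5 h and 0.496 RPKM (0.261 to 1.69) at 1 h; its difference at 0.5 h was -0.54 ± 0.27 SE (adjusted p = 0.0849) and it fell at 1 h (-1.43 ± 0.27 SE, adjusted p = 5.75e-05). Fli1 was at -0.60 ± 0.31 SE (adjusted p = 0.0973) at 0.5 h and -2.10 ± 0.31 SE (adjusted p = 1.78e-06) at 1 h. Without the Nfkbid replicate Mertk was at -0.61 and Fli1 at -0.67 at 0.5 h (adjusted p = 0.0216 and 0.00238 by limma), both still under 2-fold. With the replicate block the 0.5 h differences of Mertk and Fli1 kept their size, with adjusted p = 0.000473 and 0.00134 by limma. The calls printed here for Fos, Jun, Il27, C3, Acod1, Mir155, Mir223, Mertk, Fli1 and Tnfrsf11a kept their direction and their side of the threshold without that replicate. Tnfrsf11a dipped here as well, falling at 0.5 h (-1.45 ± 0.31 SE, adjusted p = 0.000297) and rising between 0.5 and 1 h (1.55 ± 0.31 SE, adjusted p = 0.000507).

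The course after the onset carried over in part. Genes on at 15 min and highest then (40 genes) had 27 that rose at 0.5 h and 9 at 1 h in the wild-type libraries, with 17 lower at 1 h than at 0.5 h and a median log2 difference of -1.07 between those times. Those highest at 30 min (38 tested) had 37 higher at 0.5 h and 33 at 1 h, with 11 lower in the second interval and a median of -0.68. All 10 highest at 60 min were higher at both times than at 0 h. Their median between 0.5 and 1 h was 0.13, and 0 of them were called higher in that interval. Of the genes on at 30 min, the 34 that were highest at 60 min were higher at both times in 34 of 34 cases, while the 42 tested that were highest at 30 min were higher in 36 cases at 0.5 h and in 15 at 1 h. Between 0.5 and 1 h, 8 of those 34 rose and 1 fell, and 17 of those 42 fell with 0 rising. Over all genes tested, 3.85% rose and 3.61% fell in that interval. Against 0 h, 6.85% of all genes rose at 0.5 h and 7.19% at 1 h.

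ERK-inhibited cells, which have their own 0 min library, passed most of the same steps. In them 62 of the 89 genes on at 15 min in DMSO cells were past 3-fold above at 15 min (2.19% of all genes compared; 0.159% were past 3-fold below, none of the 7 off at 15 min in DMSO cells among them), 59 of 78 on at 30 min were past it at 30 min (4.69%) and 63 of 96 on at 60 min were past it at 60 min (7.01%). Of genes off at 30 min, 59 of 81 were past 3-fold below in ERK-inhibited cells (3.36%), and of those off at 60 min 49 of 61 (5.17%). The 2 pretreatments have 1 library per time each, so these differences have no test.

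Egr1 differed most between the pretreatments at 15 min among the 89 genes, with 1.97 RPKM in ERK-inhibited cells and 51.6 RPKM in DMSO cells, a log2 difference of -4.40. Fos had 12.6 RPKM in ERK-inhibited cells and 49.5 RPKM in DMSO cells (-1.93). At 0 min, before lipid A, both were already lower with the inhibitor: Egr1 had 0.0242 RPKM in ERK-inhibited cells and 0.111 RPKM in DMSO cells, and Fos had 0.948 RPKM in ERK-inhibited cells and 3.20 RPKM in DMSO cells. Against its own 0 min, Fos was 3.18 higher on the log2 scale at 15 min in ERK-inhibited cells and 3.76 higher in DMSO cells, and Egr1 was 2.24 higher in ERK-inhibited cells and 6.41 higher in DMSO cells. Egr1 and Fos were the only genes of the 89 at least 3-fold lower with the inhibitor at 15 min, 0 were at least 3-fold higher, and the median difference was -0.34. Genes highest at 15 min had a median of -0.76 with 11 of 40 at least 2-fold lower. Those highest at 30 min had -0.21 with 2 of 39, and those highest at 60 min 0.32 with 0 of 10. The 89 genes and these groups were picked by the DMSO values that also enter each difference. That choice can by itself lower the difference for genes highest at 15 min, and its part was not tested. Cxcl2 had 22.7 RPKM in ERK-inhibited cells and 32.4 RPKM in DMSO cells.

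Several interferon-response genes were higher with the inhibitor. Rsad2 had 84.0 RPKM in ERK-inhibited cells and 20.2 RPKM in DMSO cells at 60 min. Gbp5, an interferon-induced GTPase on at 30 min, had 20.2 RPKM in ERK-inhibited cells and 7.71 RPKM in DMSO cells at 30 min. At 60 min Cmpk2, the neighbour of Rsad2 and a mitochondrial nucleotide kinase, had 32.3 RPKM in ERK-inhibited cells and 7.57 RPKM in DMSO cells, and Mx1 had 25.98 RPKM in ERK-inhibited cells and 6.93 RPKM in DMSO cells. Of the 83 genes of at least 200 bases on at 60 min, 4 (Rsad2, Cmpk2, Mx1 and Fchsd2) were at least 3-fold higher with the inhibitor, and 3 (Fam129b, Pdgfb and Slc12a4) at least 3-fold lower. By the same rule, 1 of the 96 was on at 15 min in the inhibited cells, 16 at 30 min and 47 at 60 min. Another 1 was off at 30 min there and 31 were not called. Since 60 min was the last time, genes of this class could not be called on any later. Of the 89 genes on at 15 min in DMSO cells, 4 were on at 30 min and 1 at 60 min with the inhibitor. Over all genes compared, 148 were past 3-fold above at 30 min with the inhibitor and 145 in DMSO cells.

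**Figure D5:**
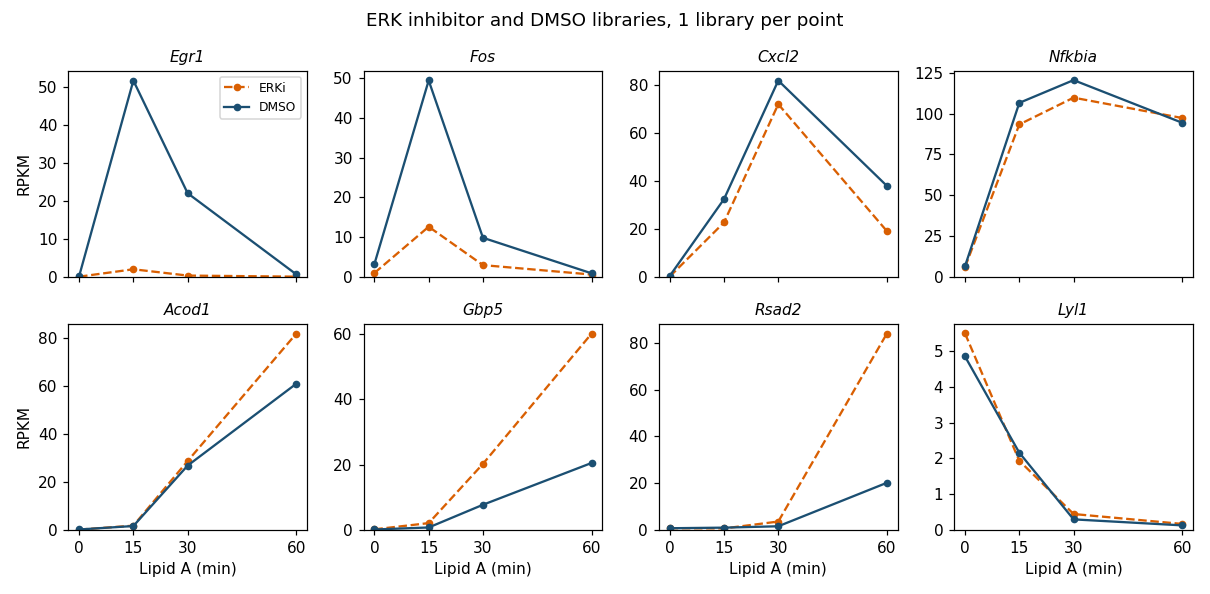
Time courses of 8 genes in ERK-inhibited cells (dashed) and DMSO cells (solid). The x axis is time of lipid A (min) and the y axis is RPKM, with its own scale in each panel and 1 library per point; at 15 min Egr1 is at 1.97 RPKM in ERK-inhibited cells and 51.6 RPKM in DMSO cells, and at 60 min Rsad2 is at 84.0 RPKM in ERK-inhibited cells and 20.2 RPKM in DMSO cells.

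Macrophages given TNFa passed part of the sequence. At 0.5 h of TNFa, 39 of 89 genes on at 15 min, 38 of 78 on at 30 min and 16 of 96 on at 60 min were past 3-fold above (3.93% of all genes compared). Of the 81 genes off at 30 min, 10 were past 3-fold below at 0.5 h of TNFa (0.888%). At 1 h of TNFa the genes past 3-fold above were 8, 2 and 6 of the same classes (0.666%). Egr1 had 0.0140, 2.28 and 0.112 RPKM at 0, 0.5 and 1 h of TNFa, and Acod1 had 0.346, 18.7 and 7.84 RPKM.

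The mRNA libraries were taken here as whole-cell RNA from their names, although their extraction text also describes chromatin. Set against chromatin RNA at the same times, they held fewer calls at 0.5 h for genes on at 15 and 30 min. The same held at 1 h for genes on at 30 and 60 min. These classes were picked by passing 3-fold in the DMSO chromatin libraries, so fewer calls elsewhere follow in part from that choice. Over all genes compared, 107 were past 3-fold above in mRNA at 0.5 h and 145 in DMSO chromatin RNA at 30 min. At 1 h there were 198 in mRNA, and at 60 min 189 in DMSO chromatin RNA. At 0.5 h of lipid A, 36 of 89 genes on at 15 min, 8 of 78 on at 30 min and 5 of 96 on at 60 min were past 3-fold above (3.39%), and at 1 h 54, 35 and 21 (6.28%). Genes on at 15 min went the other way at 1 h, since 46 of the 89 were back under 3-fold in chromatin RNA at 60 min. Egr1 had 2.25, 792 and 326 RPKM at 0, 0.5 and 1 h in these libraries, so it was still far above its start at 1 h, and Il27 had 1.42, 0.375 and 10.3 RPKM. Genes that switched off in chromatin RNA mostly stayed within 3-fold there: of 81 off at 30 min, 1 was past 3-fold below at 0.5 h (0.919%) and 4 at 1 h (1.01%), while 4 were past 3-fold above at 0.5 h and 6 at 1 h. Slc40a1 had 17.7, 14.3 and 10.9 RPKM at 0, 0.5 and 1 h.

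Called genes of at least 200 bases comprised 237 on and 122 off. On the mm9 coordinates of the files, 25 neighbouring pairs of them lay within 100 kb of each other without overlap, of which 20 were both on, 2 both off and 3 mixed; with most called genes on, many pairs would share a direction in any case, and no test was made. Rsad2 and Cmpk2, 12762 bases apart on chromosome 12, were both on at 60 min. Il1a and Il1b, 54605 bases apart on chromosome 2, were on at 30 and 15 min. The mixed pairs were Ier2 with Lyl1, Icam1 with S1pr2 (a sphingosine-1-phosphate receptor, at 3.17, 0.962, 0.337 and 1.08 RPKM at 0, 15, 30 and 60 min, 39146 bases from Icam1), and Msn with F630028O10Rik.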

How the data were processed

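The values are RPKM in a table the authors deposited, over gene spans on mm9 coordinates; HISAT2, SAMtools and mm9 are named in the submitters' processing notes, and the counting rule and use of strand are not given in the sources used here. Library depth was recovered from the size of 1 read (96.4% to 97.1% of values of 2 to 30 reads came out whole within 0.02) and serves only for read numbers and counting intervals. DMSO, ERKi, TNFa and mRNA libraries (1 per time) were compared by differences in log2(RPKM + 0.5), with no test. The 30 wild-type libraries were fitted with limma 3.58.1 in R 4.3.3 on log2(RPKM + 0.5), with the experiment as a term and a variance trend, over genes with 1 RPKM in at least 10 libraries. The fit was tested on simulated data. Same-numbered replicates deviated together at the 3 times (correlations of 0.227 to 0.916 in every pair), so the numbers pair the samples. The main fit leaves this pairing out, and the replicate block adds it. The members, lists and rules were chosen with earlier results of these data known. Named genes are the 8 with the largest difference at each class's first time, the 8 on at 15 or 30 min with the largest drop by 60 min, and called members of 20 fixed lists of genes; a few others (such as Tlr4, Rela, Ifnb1, Lpl, Tnfrsf11a and the miRNA loci) were chosen after their values were seen. Alternatives were the pseudocount, level minimum, fold, centring, overlapping genes, the replicate block and each replicate left out. Some items are not reported here.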

Additional observations from a re-analysis of the deposited data

Results flagged for a closer look

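In 42 groups of 10 wild-type libraries (14 genes at 0, 0.5 and 1 h), 19 had a library whose gap to its nearest neighbour on the log2 scale exceeded the 95% limit; chance gives about 1 in 20. In all 19 the library was replicate 1 of the Nfkbid wild type, the one with low Malat1. It was the highest for Egr1 at 0, 0.5 and 1 h, with 4.91, 486 and 22.9 RPKM. For Jun it had 62.8, 329 and 30.4 RPKM at those times, and for Lyl1 41.8, 33.0 and 10.5 RPKM. Fos had 173 RPKM in it at 0.5 h and 10.2 RPKM at 1 h, where the next library had 7.41 and 1.35 RPKM. Cxcl2 reached 1063 RPKM at 0.5 h, Acod1 363 RPKM at 1 h, and C3 6.61 RPKM at 0 h. Slc40a1 had 5.51 RPKM at 0.5 h and 3.20 RPKM at 1 h. The library was the lowest for Mir155 at 0.5 and 1 h, with 2.42 and 14.2 RPKM, and for Fli1 at 0 h, with 0.773 RPKM.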

How the results depend on the processing

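In the DMSO cells, genes on at 15, 30 and 60 min numbered 143, 126 and 160 with a 2-fold threshold and 52, 45 and 54 with 5-fold, and 126 were on at 30 min after centring. Genes off at 15 min, 7 in the report, came to 11 with a pseudocount of 0.1, a minimum of 1 RPKM or none, 2 with a pseudocount of 1, 50 at 2-fold, 0 at 5-fold, 3 centred, 4 without overlapping genes and 1 with either at least 20 reads or no gene under 200 bases (both added after seeing the data). Those off at 30 min came to 44 with a pseudocount of 1, 156 with a minimum of 1 RPKM or none, 151 at 2-fold, 11 at 5-fold and 27 centred. Those off at 60 min came to 113 with a minimum of 1 RPKM or none and 39 at 5-fold. The cause of these changes was not tested. In the wild-type libraries, centring gave 58 genes on at 60 min higher at 0.5 h, and 44 off at 30 min and 8 off at 60 min lower at 0.5 h; over all genes it gave 428 higher and 156 lower at 0.5 h, and 419 higher and 289 lower at 1 h. A pseudocount of 0.1 gave 1068 lower at 0.5 h, and 291 higher and 254 lower at 1 h than at 0.5 h, and a pseudocount of 1 gave 250 lower at 0.5 h, 380 lower at 1 h, and 78 higher and 81 lower at 1 h than at 0.5 h. Fos at 1 h against 0 h, -0.35 as reported, was 0.025 centred. Tnfrsf11a at 1 h against 0 h, 0.10 and not called, ranged from -0.079 (without replicate 2 of the Nfkbid wild type) to 0.26 with a replicate left out and was also below 0, at -0.02, without replicate 1 of the Bcl3 wild type. With each replicate left out in turn, calls over all genes ranged from 243 to 293 higher and 511 to 602 lower at 0.5 h, 252 to 286 higher and 586 to 664 lower at 1 h, and 110 to 212 higher and 102 to 180 lower at 1 h than at 0.5 h. With the replicate block, 74 genes on at 15 min were higher at 0.5 h and 34 lower at 1 h than at 0.5 h, and 44 on at 60 min were higher at 1 h than at 0.5 h; the block moved no count given in the report by over 1.5 times, and genes off at 30 min higher at 1 h than at 0.5 h were 4 with it and 1 without. Over all alternatives, 305 values of counts stayed within 1.5 times and 40 did not; of gene values, 705 kept their direction and side of the threshold or moved little, 56 moved, 15 lost and 4 gained a call, and 3 reversed. With 1 library per time, no DMSO value has a replicate error.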

Other observations

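The 3 replication-dependent histone genes called were off at 30 min in the DMSO cells. Hist1h1c, a linker histone gene, had 4.20, 3.23, 0.692 and 0.465 RPKM at 0, 15, 30 and 60 min. Hist2h2ac, a core histone gene, had 3.83, 3.14, 0.585 and 0.560 RPKM. Hist1h4d had 3.11, 1.14, 0.340 and 1.03 RPKM, from 27 reads at most. Mki67, a proliferation marker, was on at 30 min and had 1.66, 2.10, 8.84 and 5.19 RPKM. In the wild-type libraries Hist1h1c was at -0.69 ± 0.32 SE on the log2 scale at 0.5 h against 0 h (adjusted p = 0.0688 by limma) and did not pass the 2-fold and p limits at either time. Hist2h2ac was at -0.15 ± 0.28 SE at 0.5 h (adjusted p = 0.662 by limma) and did not pass either, and these were the 2 of the 3 tested there.

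The miR-17 host Mir17hg, on at 60 min in the DMSO cells, was 0.84 ± 0.29 SE higher on the log2 scale at 1 h than at 0 h in the wild-type libraries, in 10 of 10 replicates (adjusted p = 0.0183 by limma), which is under the 2-fold asked for.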
